A study of Mus musculus with 10 samples.

Results

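Reads of the initiator methionine tRNA (tRNA-iMet-CAT), the elongator methionine tRNA (tRNA-Met-CAT), tRNA-Phe-GAA and tRNA-Trp-CCA were examined in the small RNA of mouse sperm. These are 4 of the 51 nuclear tRNAs that the data list by amino acid and anticodon, and the rule that picks them is their names and no measured value. Mature sperm came from the tail of the epididymis and the vas deferens of C57BL/6J male mice, the F0 fathers, which ate a control diet with 10% of energy from fat (CD-F0, n = 5) or a high-fat diet with 42% (HFD-F0, n = 5) from 4 weeks of age. The diets lasted 10 weeks, and the labels name no transgene or other allele in either group. Nothing in the sources used here ties a sample to a single animal, so p-values measure the spread between these samples, which may be technical in part.

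tRNAs carry amino acids to the ribosome, where the anticodon pairs with a codon of the mRNA. Methionine has a single codon but a pair of cytosolic tRNAs. The initiator enters the ribosome with initiation factor eIF2 and reads the start codon, and the elongator is delivered by eEF1A and reads all other methionine codons. Tryptophan is likewise read by a single anticodon, and both phenylalanine codons are read by tRNA-Phe-GAA. Sperm hold many fragments cut from tRNAs, called tsRNAs, of which fragments from the 5′ side are usually the most abundant. The files sort the reads of each tRNA into those that start at its 5′ end, those that reach the 3′ end encoded in the gene, and those that reach the CCA end, the 3 bases that an enzyme adds to the mature tRNA. The remaining reads are called internal here.

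Each library held a similar number of clean reads. CD-F0 libraries ranged from 30431401 to 31586854 (median 31307587) and HFD-F0 libraries from 29558751 to 32178088 (median 32002811). Nuclear tRNA reads were 22.9 to 25.8% of the clean reads in CD-F0 and 22.6 to 27.4% in HFD-F0. The share of clean reads that matched the genome was 64.9 to 75.2% in CD-F0 and 73.3 to 74.7% in HFD-F0, and rRNA took 36.9% of the clean reads in CD-F0 replicate 1 against 24.3 to 30.5% in the 9 other libraries. The samples numbered 1 of both groups stood apart in the parts of several tRNAs below, so several values are also given without both of them. This setting was chosen after seeing the data. Levels are given as reads per 1000000 clean reads (RPM), and intervals on them cover counting error only. Libraries were made from a gel slice of 18 to 30 nucleotides, a size that leaves out longer tRNA fragments and whole tRNAs.

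The cell type was checked against miRNAs. All 5 sperm and germ cell miRNAs of the miR-34 and miR-449 families were listed, and their summed level was 11654 ± 960.0 RPM in CD-F0 and 10486 ± 2877 RPM in HFD-F0 (SD, n = 5 each, exact permutation test, p = 0.405), with mmu-mir-449a giving 57.4% of it. miRNAs of other cells were present as well. The 6 markers of epididymal epithelium summed to 5519 and 6890 RPM (exact permutation test, p = 0.167), the 4 of smooth muscle to 25809 and 28904 RPM (p = 0.437, 96.0% of it mmu-mir-143) and the 7 of blood and immune cells to 4518 and 4800 RPM (p = 0.690), and none of the 22 markers was at 0 in every sample. All 6 epithelial and all 4 smooth muscle markers had the higher mean in HFD-F0. So did 6 of the 7 blood and immune markers and 3 of the 5 sperm and germ cell markers. With clean reads as library size, the median log2 fold change over all small RNA features was itself above 0 (0.093). The share of all miRNAs with the higher mean in HFD-F0 is not given here. No shift of a cell type is therefore read from these counts. The epithelial sum by sample was 6643, 5412, 3969, 4817 and 6756 RPM in CD-F0 replicates 1 to 5 and 9463, 6351, 5520, 7229 and 5886 RPM in HFD-F0. The sperm and germ cell sum was 10478, 12648, 12223, 12135 and 10783 RPM in CD-F0 and 15064, 9203, 10750, 7275 and 10139 RPM in HFD-F0. HFD-F0 replicate 1 had the highest sum of the epithelial, the sperm and germ cell and the smooth muscle markers (36078 RPM), and the part of other cells in the tRNA values was not tested. In such bulk samples fewer cells of a type and less RNA per cell cannot be told apart.

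In the RefSeq annotation of GRCm38.p6, the assembly known as mm10 that the data were matched to, the methionine tRNAs are 16 genes named n-TMcat, of which 9 are 72 and 7 are 73 bases long. The names do not separate initiator from elongator genes. Of these genes, 11 lie on chromosome 13 between 21167604 and 23530419, 3 on chromosome 15 and 1 each on chromosomes 3 and 8. tRNA-Phe-GAA has 7 genes (n-TFgaa, 73 bases) on chromosomes 5, 10, 13, 14 and 19, and tRNA-Trp-CCA has 8 genes (n-TWcca, 72 bases), of which 4 lie on chromosome 11 between 61407916 and 69063566 and 2 each on chromosomes 10 and 13. None of the 31 genes overlapped an exon of the GENCODE annotation, and 3 n-TMcat genes lay within an intron of a GENCODE gene. The lengths differ by at most 1 base, 0.020 on the log2 scale, so levels in RPM were compared between these tRNAs as they stand. Copies of a tRNA gene are near identical, and the data give reads per tRNA and not per gene.

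Both methionine tRNAs were among the most abundant nuclear tRNAs, and tRNA-Phe-GAA was among the scarcest. Over the 10 samples tRNA-iMet-CAT held 6.59% of nuclear tRNA reads, tRNA-Met-CAT 6.22%, tRNA-Trp-CCA 1.56% and tRNA-Phe-GAA 0.259%. Their ranks by mean level among the 51 were 3, 4, 21 and 43 in that order. The 4 together made up between 11.3% (HFD-F0 replicate 1) and 18.1% (CD-F0 replicate 5) of nuclear tRNA reads. In the plot of all nuclear tRNAs, the initiator lies above the tRNAs of like level in its spread over all 10 samples.

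**Figure D1:**
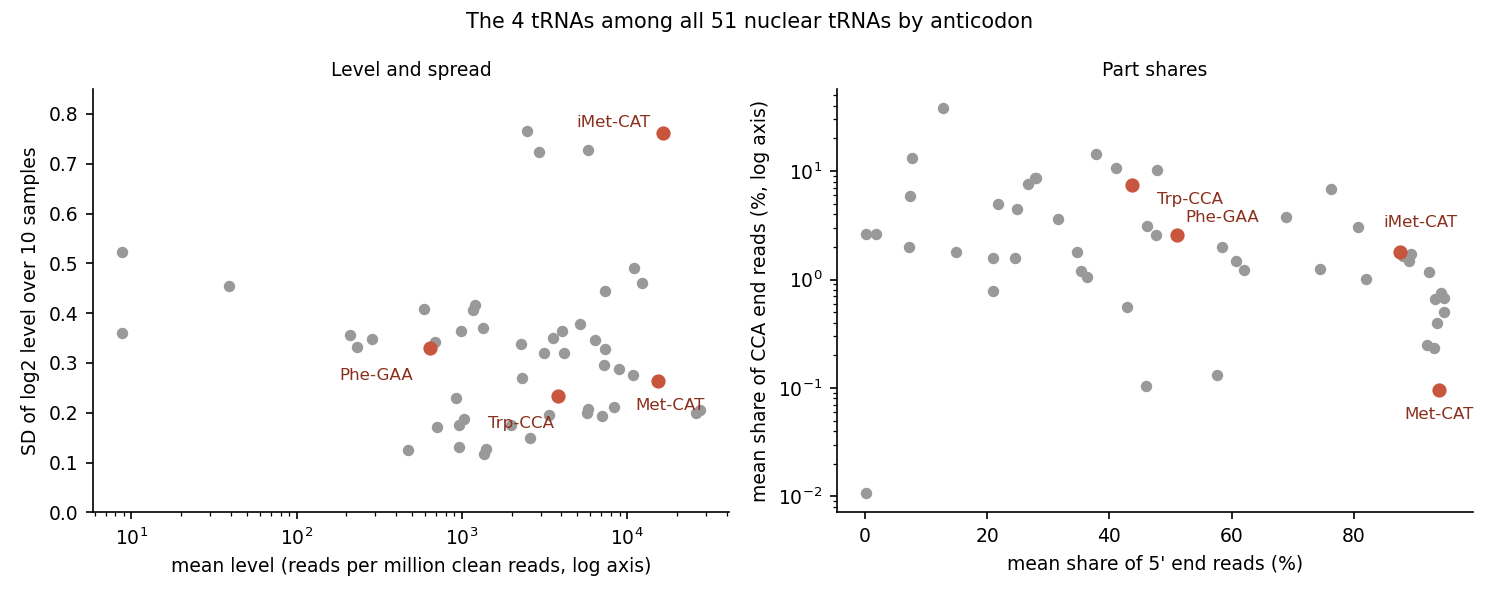
The 51 nuclear tRNAs, each a point, by mean level over the 10 samples (left, x axis, RPM on a log axis) against the SD of log2 level (y axis), and by mean 5′ end share (right, x axis, percent) against mean CCA end share (y axis, percent on a log axis), with the 4 tRNAs described here in red. tRNA-iMet-CAT lies at an SD of 0.76 and the other 3 at 0.23 to 0.33, and tRNA-Met-CAT combines a 5′ end share of 94.0% with a CCA end share of 0.0967%.

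Over all 10 samples the initiator varied most of the 4. Without the samples numbered 1 it varied about as much as the elongator (highest to lowest library 1.86-fold against 1.85-fold, SD of the log2 level 0.28 against 0.29). tRNA-iMet-CAT stood at 8217, 17797, 15075, 18187 and 26886 RPM in CD-F0 replicates 1 to 5 and at 4392, 14446, 19388, 20317 and 19588 RPM in HFD-F0 replicates 1 to 5. The highest library was 6.12-fold the lowest. HFD-F0 replicate 1 was the lowest library and CD-F0 replicate 1 the next, and the groups overlapped: the means were 17232 ± 6715 and 15626 ± 6698 RPM (SD, n = 5 each, exact permutation test, two-sided, p = 0.738). The SD of its log2 level over all samples, 0.76, ranked 2 among the 51 nuclear tRNAs, whose median was 0.33. Without HFD-F0 replicate 1 the highest was 3.27-fold the lowest and the SD 0.47 (rank 5), and without both replicate 1 samples these were 1.86-fold and 0.28 (rank 20, median 0.23).

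Of the elongator, 4 of the 5 HFD-F0 libraries held less than every CD-F0 library, 1 of them by a small margin. tRNA-Met-CAT stood at 16107, 15576, 19991, 16841 and 15768 RPM in CD-F0 replicates 1 to 5 and at 16679, 10807, 15495, 11391 and 14542 RPM in HFD-F0. HFD-F0 replicate 1 lay within the CD-F0 range and was the exception. HFD-F0 replicate 3 lay just below CD-F0 replicate 2, and their Wilson 95% intervals overlapped (15452 to 15538 and 15533 to 15620 RPM). The highest library was 1.85-fold the lowest and the SD of the log2 level 0.26, or 0.29 without both replicate 1 samples, close to that of the initiator in the same 8 libraries. The means were 16857 ± 1817 and 13783 ± 2573 RPM (SD, n = 5 each), a ratio of 0.818, and the difference did not reach p = 0.05 on this scale (exact permutation test, two-sided, p = 0.0556). By the same exact permutation test it was past that threshold per 1000000 annotated reads (p = 0.0397) and without both replicate 1 samples (p = 0.0286), and not per 1000000 nuclear tRNA reads (p = 0.103). Leaving out single samples gave p from 0.00794 (without HFD-F0 replicate 1) to 0.151 (without CD-F0 replicate 3, a difference of -2290 RPM), by the exact permutation test. The p-values without HFD-F0 replicate 1 follow from that choice, since the other 4 HFD-F0 libraries lay below every CD-F0 library. They are no separate evidence of a difference.

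tRNA-Phe-GAA stood at 874, 705, 595, 573 and 677 RPM in CD-F0 and at 402, 593, 565, 560 and 864 RPM in HFD-F0. The groups overlapped, although 3 HFD-F0 libraries lay below all CD-F0 libraries (684.6 ± 119 against 596.9 ± 167 RPM, SD, n = 5 each, exact permutation test, p = 0.325). The samples numbered 1 were the highest of CD-F0 and the lowest of HFD-F0, and without both the difference was 8.50 RPM, with HFD-F0 the higher (exact permutation test, p = 0.971). tRNA-Trp-CCA stood at 3740, 3900, 4030, 3980 and 3001 RPM in CD-F0 and at 4000, 2853, 4555, 3568 and 4759 RPM in HFD-F0. Its HFD-F0 libraries lay on both sides of the CD-F0 range (3730 ± 422 against 3947 ± 770 RPM, exact permutation test, p = 0.611).

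**Figure D2:**
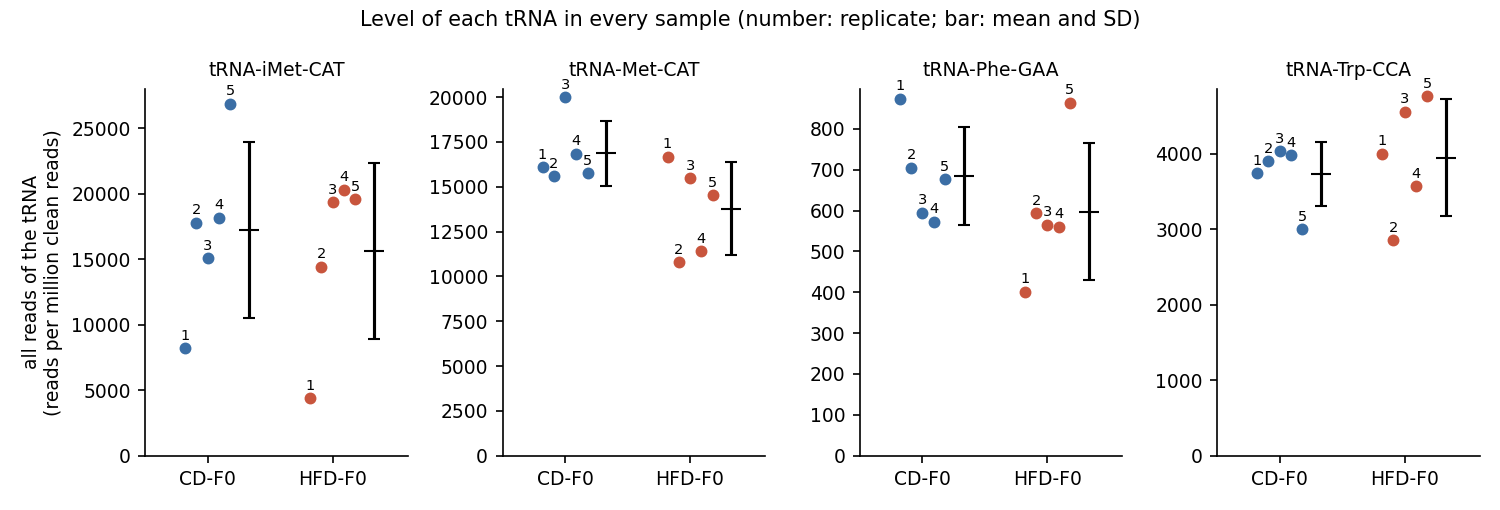
Level of each of the 4 tRNAs (y axis, RPM) in every CD-F0 and HFD-F0 sample, each point a sample and numbered by replicate, and the bar the mean ± SD of 5. The groups overlap for all 4, tRNA-iMet-CAT spans 4392 to 26886 RPM, and 4 HFD-F0 samples of tRNA-Met-CAT lie below the CD-F0 samples.

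Neighbours in the order of levels are given as a description with no test, since mean level in these samples chose them. tRNA-Lys-CTT, the next above the initiator at 26170 RPM, was higher than it in 9 of 10 samples, with a mean log2 ratio of initiator to tRNA-Lys-CTT of -0.80 (SD 0.90). tRNA-Met-CAT exceeded tRNA-Ala-TGC, the next below it at 12316 RPM, in 7 of 10 samples (mean log2 ratio 0.35, SD 0.53). tRNA-Trp-CCA lay between tRNA-Glu-TTC (4030 RPM) and tRNA-Leu-TAA (3571 RPM), and tRNA-Phe-GAA between tRNA-Leu-CAA (692 RPM) and tRNA-Pro-CGG (588 RPM). The mean log2 ratio to these 4 neighbours was between -0.11 and 0.14, with an SD over the samples of 0.30 to 0.50, and each of the 4 was the higher in some samples and the lower in others.

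The 4 tRNAs fell into a pair dominated by the 5′ end and a pair divided between the 5′ end and internal reads. The 5′ end took on average 94.0% of the reads of tRNA-Met-CAT (rank 4 of 51) and 87.5% of those of tRNA-iMet-CAT (rank 13), against a median of 46.2% over the 51 nuclear tRNAs. It took 50.99% for tRNA-Phe-GAA and 43.7% for tRNA-Trp-CCA, whose internal reads were 46.3% and 48.5%. The CCA end took 7.39% of tRNA-Trp-CCA reads (rank 9), 2.59% of tRNA-Phe-GAA, 1.78% of tRNA-iMet-CAT and 0.0967% of tRNA-Met-CAT (rank 50), with a median of 1.78% over the 51. The 3′ end encoded in the gene took less than the CCA end for each of the 4, at 0.391% for tRNA-Trp-CCA, 0.102% for tRNA-Phe-GAA, 0.0515% for tRNA-iMet-CAT and 0.00922% for tRNA-Met-CAT.

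**Figure D3:**
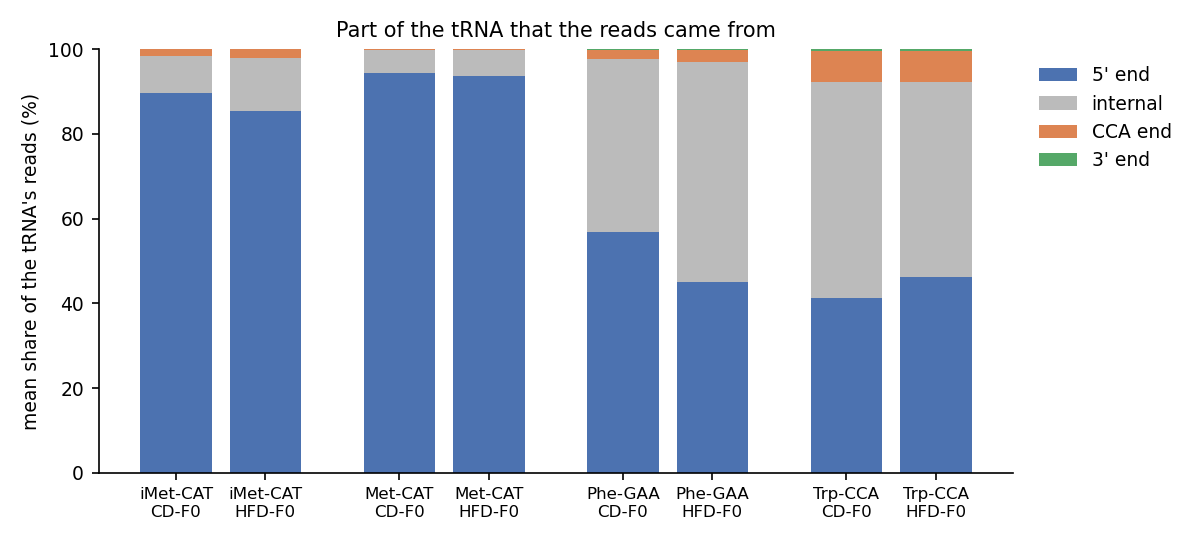
Mean share of each tRNA's reads (y axis, percent, 5 samples a bar) that start at the 5′ end, are internal, or reach the CCA end or the 3′ end, in CD-F0 and HFD-F0. 5′ end reads fill most of tRNA-Met-CAT and tRNA-iMet-CAT on both diets, and for tRNA-Phe-GAA they are 56.9% in CD-F0 and 45.1% in HFD-F0.

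The nuclear tRNAs with the most similar mean part shares were named by the sum of absolute differences over the 4 parts. For tRNA-iMet-CAT these were tRNA-Leu-AAG (0.988 percentage points) and tRNA-Ser-TGA (3.21), and for tRNA-Met-CAT tRNA-Ser-GCT (1.03) and tRNA-Lys-CTT (1.55). tRNA-Phe-GAA had no neighbour as close, with tRNA-Ile-AAT at 6.81 and tRNA-Gly-TCC at 9.72, and nor had tRNA-Trp-CCA, with tRNA-Gly-TCC at 9.18 and tRNA-Tyr-GTA at 9.27. The distances were taken over means of 10 samples.

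The methionine tRNAs were compared within each library, since both are read from the same RNA. Their totals did not order the same way in all libraries: the ratio of initiator to elongator reads was 0.510, 1.14, 0.754, 1.08 and 1.71 in CD-F0 replicates 1 to 5 and 0.263, 1.34, 1.25, 1.78 and 1.35 in HFD-F0. The initiator was the higher in 7 of 10 samples, and the mean log2 ratio was -0.022 (SD 0.86, exact sign-flip permutation test, p = 0.939). CD-F0 replicates 1 and 3 and HFD-F0 replicate 1 were the 3 libraries below 1. Without both replicate 1 samples the mean log2 ratio was 0.33 (exact sign-flip permutation test, p = 0.0469), and leaving out CD-F0 replicate 1, CD-F0 replicate 3 or HFD-F0 replicate 1 alone gave 0.083, 0.020 or 0.19, each above 0. These settings remove libraries below 1, and the first was chosen after seeing the data. Their higher means follow from that choice and do not show that the initiator exceeds the elongator. The 5′ end ratio had a mean log2 of -0.13 (exact sign-flip permutation test, p = 0.721), which was 0.27 without both replicate 1 samples (p = 0.117).

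The parts of the methionine tRNAs differed in every library or nearly so. The CCA end share of the initiator exceeded that of the elongator by 1.68 percentage points, and its CCA end reads were higher by 4.26 on the log2 scale (SD 0.30), in 10 of 10 samples each (exact sign-flip permutation test, p = 0.00195, the smallest that 10 samples allow, adjusted p = 0.00352 over 9 contrasts). In CD-F0 replicates 1 to 5 the initiator's CCA end stood at 125, 337, 178, 274 and 584 RPM, and the elongator's at 10.4, 14.8, 9.06, 13.5 and 24.7 RPM. In HFD-F0 the same values were 117, 324, 367, 304 and 231 RPM and 6.94, 16.2, 14.7, 16.6 and 13.6 RPM. The lowest initiator value was above the highest elongator value.

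Internal reads of the initiator were higher by 0.78 on the log2 scale and 3′ end reads by 2.92, in 10 of 10 samples each (exact sign-flip permutation test, p = 0.00195, adjusted p = 0.00352). The elongator's 3′ end rested on few reads, 4 in HFD-F0 replicate 1 (0.125 RPM, Wilson 95% interval 0.0486 to 0.321) and 96 at most. The difference in 5′ end share, initiator minus elongator, was -6.50 percentage points on average (SD 6.65), with the initiator higher in 1 of 10 samples (exact sign-flip permutation test, p = 0.00391, adjusted p = 0.00586). The internal share was higher by 4.78 points, in 9 of 10 samples (exact sign-flip permutation test, p = 0.0117, adjusted p = 0.0151). Without HFD-F0 replicate 1 the internal share was higher by 2.99 points (p = 0.0234, exact sign-flip permutation test). Without both replicate 1 samples the differences were -3.87 points for the 5′ end share (p = 0.0156) and 2.24 points for the internal share (p = 0.0469), by the same exact permutation test.

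**Figure D4:**
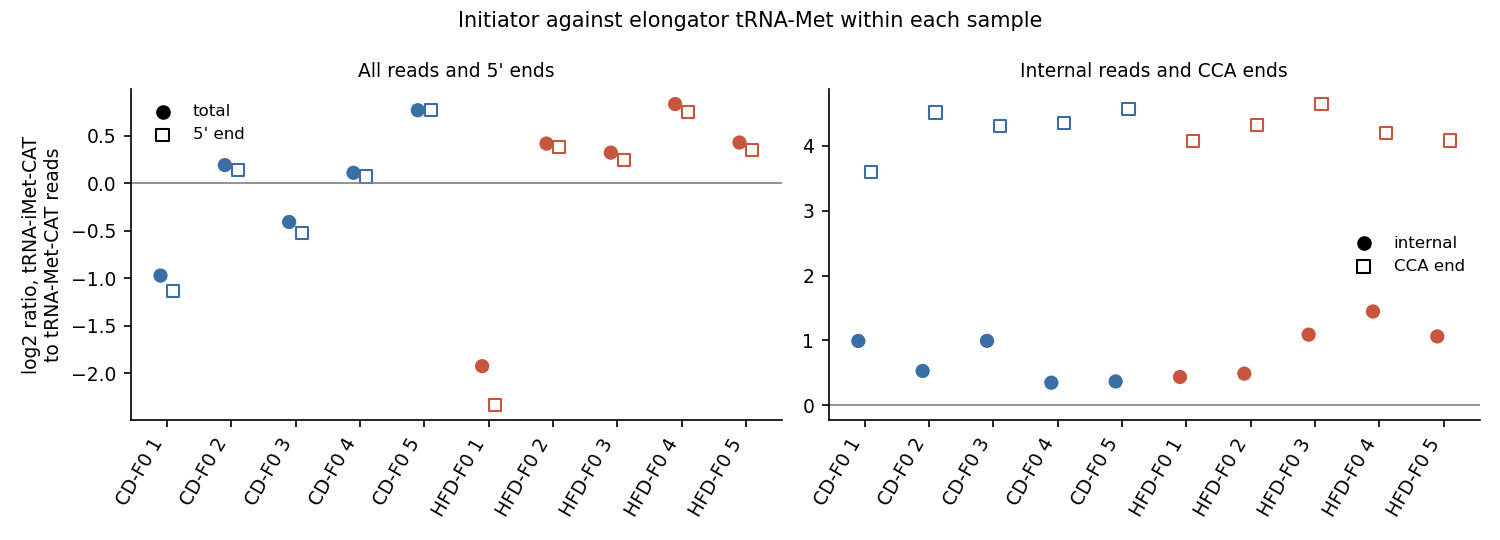
Log2 ratio of tRNA-iMet-CAT to tRNA-Met-CAT reads (y axis) in each sample (x axis, CD-F0 in blue and HFD-F0 in red), for all reads and 5′ ends (left) and for internal reads and CCA ends (right), with a line at 0, where reads are equal. Totals and 5′ ends lie below 0 in CD-F0 replicates 1 and 3 and HFD-F0 replicate 1 and above it in the other 7 samples, and internal reads and CCA ends lie above 0 in all 10.

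Diet did not separate this ratio. The mean log2 ratio of the totals was -0.061 ± 0.66 in CD-F0 and 0.016 ± 1.10 in HFD-F0 (SD, n = 5 each, difference 0.077, exact permutation test, p = 0.881). Leaving out single samples moved this difference between -0.15 and 0.56, the latter without HFD-F0 replicate 1, and without both replicate 1 samples it was 0.34. The differences for the 3′ end (0.40, p = 0.548), the internal reads (0.26, p = 0.230), the 5′ end (0.014, p = 1) and the CCA end (-0.00023, p = 1) were within the spread as well by the same exact permutation test, with an adjusted p of 1 for all 5. Leaving out single samples moved them between 0.013 and 0.73 for the 3′ end and between 0.12 and 0.38 for internal reads. Without both replicate 1 samples the differences were 0.32 for the 5′ end, 0.46 for internal reads and -0.12 for the CCA end, and that for the 3′ end changed sign to -0.21. A p that misses the threshold does not show that the diets gave the same ratio.

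In the 3 libraries with less initiator than elongator, picked by that ratio in these data, the CCA ends of the other 47 nuclear tRNAs were at their lowest. They were 1.83% (CD-F0 replicate 1), 1.67% (CD-F0 replicate 3) and 1.76% (HFD-F0 replicate 1) of those tRNAs' reads, against 2.10 to 2.65% in the other 7 libraries. The initiator's own CCA end share did not follow this order. It was 1.52%, 1.18% and 2.66% in these 3, the last the highest of all 10, and 1.18 to 2.24% in the others. The share of the initiator's own CCA ends that did not match the genome was 25.8%, 33.1% and 33.9% in these 3 and 51.1 to 82.9% in the others. This is a description of 10 libraries whose part in the result was not tested.

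Since the genome does not encode CCA, reads that reach it can fail to match the genome and are then found on the mature tRNA alone. On average 95.04% of the CCA end reads of tRNA-Trp-CCA, 90.1% of tRNA-Met-CAT and 55.6% of tRNA-iMet-CAT were of this kind, and none of tRNA-Phe-GAA. No 5′ end or 3′ end read of the 4 was, which says little, since the gene encodes both of these ends. Of internal reads, 6.06% of tRNA-Trp-CCA, 5.01% of tRNA-iMet-CAT, 0.395% of tRNA-Met-CAT and none of tRNA-Phe-GAA did not match the genome. Of all reads of a tRNA, those that did not match the genome were 10.2% for tRNA-Trp-CCA, 1.47% for tRNA-iMet-CAT, 0.112% for tRNA-Met-CAT and 0 for tRNA-Phe-GAA. CCA end reads outnumbered 3′ end reads in every library, with a median ratio of 34.5 for tRNA-iMet-CAT, 24.5 for tRNA-Phe-GAA, 18.4 for tRNA-Trp-CCA and 14.2 for tRNA-Met-CAT. The files list 4 precursor tRNAs, and none of them belongs to the 4 tRNAs described here.

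HFD-F0 was compared with CD-F0 by edgeR's quasi-likelihood test over all small RNA features, and a feature was called at p at or under 0.05 with an absolute log2 fold change of at least 1. No part of the 4 tRNAs passed both thresholds: 0 of 16 did, beside 30 of 814 features tested (3.69%). All 16 passed the filter on low counts. Of the 16 log2 fold changes, 8 were above and 8 below 0, with a median of 0.0099, and the median over all 814 features was -0.0055. At p at or under 0.05 alone, 1 of the 16 was lower in HFD-F0 and none higher, beside 33 (4.05%) lower and 50 (6.14%) higher of all features, 10.2% in either direction. After adjustment none of the 16 passed 0.05, beside 1 of 814 (0.123%). Among the totals, 0 of 4 passed both thresholds, beside 19 of 641 features (2.96%), and 1 of 4 was lower at p at or under 0.05, beside 33 (5.15%) of all features. None was higher, beside 42 (6.55%), and 75 features (11.7%) passed in either direction. Of the 4 log2 fold changes 1 was above and 3 were below 0, with a median of -0.20, against -0.038 over all features. No total passed 0.05 after adjustment, among the 4 or over all 641 features.

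The member at p under 0.05 was elongator tRNA-Met. Its 5′ end stood at 15598, 14572, 19223, 15894 and 14414 RPM in CD-F0 replicates 1 to 5 and at 15830, 9934, 14776, 10537 and 13559 RPM in HFD-F0. HFD-F0 replicates 2, 4 and 5 lay below all CD-F0 samples and the other two within their range. The log2 fold change was -0.41 (SE 0.14, 95% interval -0.72 to -0.11, edgeR, p = 0.0124, adjusted p = 0.253, with p = 0.0952 by an exact permutation test of RPM), less than the threshold on size and not significant after Benjamini-Hochberg adjustment over all features. Its total, most of which is the 5′ end, gave -0.38 (SE 0.13, 95% interval -0.67 to -0.10, edgeR, adjusted p = 0.310). With clean reads as library size in place of TMM neither passed p at or under 0.05, at -0.30 for the 5′ end and -0.29 for the total. Its other parts gave -0.18 (internal), -0.15 (CCA end) and -0.016 (3′ end).

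The initiator's 5′ end stood at 7099, 16021, 13383, 16716 and 24581 RPM in CD-F0 and at 3132, 12913, 17516, 17727 and 17328 RPM in HFD-F0. HFD-F0 replicate 1 lay below all CD-F0 samples, CD-F0 replicate 5 lay above all HFD-F0 samples and the others overlapped, and the log2 fold change of -0.22 had an SE of 0.44 (95% interval -1.18 to 0.73, edgeR, adjusted p = 0.914). Its total gave -0.16 with a 95% interval of -1.07 to 0.75, the widest among the 4 totals, and lay above 0 when HFD-F0 replicate 1 (0.096) or CD-F0 replicate 5 (0.062) was left out. Its internal reads gave 0.19, its CCA end -0.21 and its 3′ end 0.082.

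tRNA-Phe-GAA had the largest log2 fold change in size of the 16 parts, in its 5′ end. The values were 578, 443, 237, 316 and 409 RPM in CD-F0 and 167, 276, 245, 237 and 444 RPM in HFD-F0, with HFD-F0 replicate 1 well below all CD-F0 samples and HFD-F0 replicate 4 just below the lowest of them. The log2 fold change was -0.62 (SE 0.32, 95% interval -1.31 to 0.08, edgeR, adjusted p = 0.514). It did not pass p at or under 0.05, and did so without CD-F0 replicate 3 (-0.77) or without HFD-F0 replicate 5 (-0.88). Without both replicate 1 samples, which were the highest of CD-F0 and the lowest of HFD-F0, it was -0.25. Its 3′ end gave 0.43, on 10 to 33 reads a library, its CCA end 0.23 and its internal reads 0.082.

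tRNA-Trp-CCA gave log2 fold changes of 0.13 for the 5′ end, -0.16 for internal reads, 0.036 for the CCA end and 0.42 for the 3′ end. Its 5′ end stood at 2267, 1521, 1552, 1393 and 1002 RPM in CD-F0 and at 2583, 998, 1859, 1503 and 2296 RPM in HFD-F0. Both replicate 1 samples were high, the highest in each group, and the groups overlapped. The 3′ end stood at 7.62, 15.6, 9.25, 16.1 and 13.3 RPM in CD-F0 and at 7.81, 16.1, 24.2, 18.9 and 19.3 RPM in HFD-F0. It was above all CD-F0 samples in 4 of 5 HFD-F0 samples, 1 of them by a small margin (12.4 ± 3.79 against 17.3 ± 6.04 RPM, SD, n = 5 each, exact permutation test, p = 0.143). The log2 fold change of this 3′ end passed p at or under 0.05 without HFD-F0 replicate 1 (0.59) and without both replicate 1 samples (0.49). The total differed by 0.0014 on the log2 scale, with a 95% interval of -0.36 to 0.36.

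**Figure D5:**
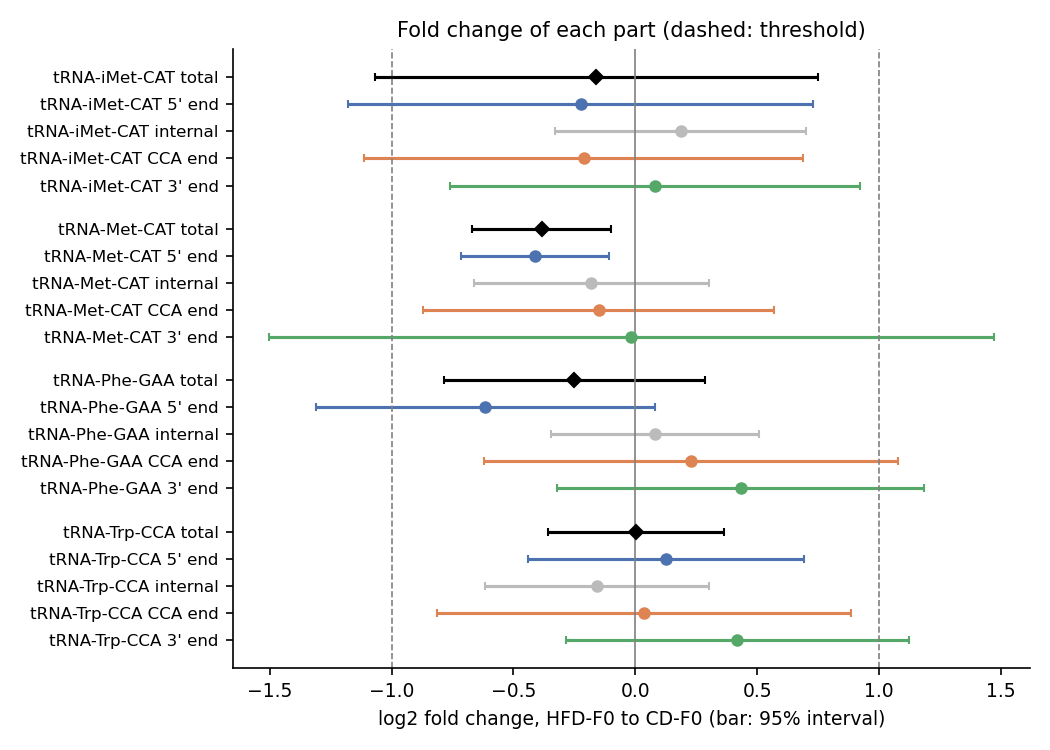
Log2 fold change of HFD-F0 against CD-F0 (x axis) for the total and each part of the 4 tRNAs, with bars for the 95% interval of the edgeR fit and dashed lines at the threshold of 1 in each direction. No point passes the threshold, and only the total and 5′ end of tRNA-Met-CAT have intervals that leave out 0.

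Among the other nuclear tRNAs, the list for comparison, the log2 fold changes also lay on both sides of 0. Of their 177 tested parts 91 were above and 86 below 0, with a median log2 fold change of 0.0057, and 3 passed both thresholds, each higher in HFD-F0. Of the other 47 totals, 15 were above and 32 below 0, the median was -0.086, and none passed both thresholds.

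Shares of the parts do not depend on the depth of a library, and 1 of the 16 shares of these tRNAs differed between diets at p at or under 0.05, beside 14 of 204 (6.86%) over all nuclear tRNAs. This was the 3′ end of tRNA-Phe-GAA, at 0.0385, 0.0926, 0.0732, 0.0908 and 0.101% of its reads in CD-F0 (mean 0.0792%) and at 0.139, 0.116, 0.115, 0.126 and 0.130% in HFD-F0 (mean 0.125%). The groups did not overlap, as in 7 of the 204 (3.43%), but no share passed adjustment (exact permutation test, p = 0.00794, the smallest that 5 against 5 allows, adjusted p = 0.231), and the value rests on 10 to 33 reads a library. The 5′ end share of tRNA-Phe-GAA was 56.9 ± 10.3% in CD-F0 and 45.1 ± 4.02% in HFD-F0, and its internal share 40.7 ± 9.59% and 51.9 ± 4.30% (SD, n = 5 each, exact permutation test, p = 0.0556 each). By sample the 5′ end share was 66.2, 62.9, 39.9, 55.3 and 60.4% in CD-F0 and 41.6, 46.6, 43.4, 42.3 and 51.4% in HFD-F0. CD-F0 replicate 3 was the lowest sample of all. Leaving out single samples gave differences from -16.1 points (p = 0.00794, without CD-F0 replicate 3) to -9.56 points (p = 0.103, without CD-F0 replicate 1), and without both replicate 1 samples it was -8.70 points (p = 0.171), by exact permutation tests.

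For tRNA-iMet-CAT the 5′ end share was 89.7 ± 2.22% in CD-F0 and 85.4 ± 7.93% in HFD-F0 (SD, n = 5 each, exact permutation test, p = 0.262), with 71.3% in HFD-F0 replicate 1 and 86.4 to 91.9% in the other samples. Without HFD-F0 replicate 1 the difference was -0.845 points, and without both replicate 1 samples -1.67 points. For tRNA-Met-CAT it was 94.5% and 93.6% (p = 0.444), and for tRNA-Trp-CCA 41.3% and 46.1% (p = 0.492), by the same exact permutation test. Leaving out HFD-F0 replicate 1 moved the tRNA-Trp-CCA difference to 0.232 points and leaving out CD-F0 replicate 1 to 9.67 points. tRNA-Trp-CCA had 60.6% in CD-F0 replicate 1 and 64.6% in HFD-F0 replicate 1 against 33.4 to 48.3% in the other 8.

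Mitochondria carry their own tRNAs for the same amino acids, encoded in the mitochondrial genome and far scarcer here. mt_tRNA-Met-CAT was at 54.2 ± 10.4 RPM in CD-F0 and 111 ± 39.2 RPM in HFD-F0 (SD, n = 5 each), a log2 fold change of 0.97 (SE 0.24, edgeR, adjusted p = 0.222). The mitochondrial tryptophan tRNA, mt_tRNA-Trp-TCA, was at 39.5 ± 4.83 and 63.5 ± 15.6 RPM, a log2 fold change of 0.63 (SE 0.22, edgeR, adjusted p = 0.310). mt_tRNA-Phe-GAA was at 9.14 and 12.3 RPM, a log2 fold change of 0.33 (edgeR, adjusted p = 0.734). Of these 3, mt_tRNA-Met-CAT and mt_tRNA-Trp-TCA passed p at or under 0.05, both higher in HFD-F0, beside 42 of 641 features (6.55%), and none passed both thresholds or adjustment over all features. The log2 fold change of nuclear tRNA-Met-CAT was below 0 and that of its mitochondrial counterpart above 0, and the difference between them was not tested.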

How the data were processed

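The authors trimmed the reads and annotated them with SPORTS, which aligned them with Bowtie, at 1 mismatch, to mm10 (per the labels) and then to sets of small RNA. They deposited estimated counts per RNA class and sub-class, with reads that fit more than 1 sub-class divided among those they fit. Adapters carried unique molecular identifiers, and whether reads were collapsed by them is not given in the sources used here. Reads that did and did not match the genome were added, internal reads were the total less the ends, and RPM was taken over clean reads. The estimated counts were rounded to whole numbers, filtered with filterByExpr, scaled by TMM and tested with edgeR 4.0.16 (R 4.3.3) over all features, once with the parts of each tRNA (814 of 1470 features tested) and once with its total (641 of 1254). SE was the log2 fold change divided by the root of F. Shares and RPM were compared with two-sided exact permutation tests (252 assignments), and the methionine tRNAs by sign flips within samples (1024), with SciPy 1.17.1. Shares were tested for the 51 nuclear tRNAs with at least 100 reads on average per sample. Adjusted p-values follow Benjamini and Hochberg. On simulated data 187 of 190 part features changed by 2 on the log2 scale, and 194 of 196 totals, were recovered.

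Named were the 4 tRNAs and their parts, their mitochondrial counterparts, the 2 nuclear tRNAs with the most similar part shares and the neighbours in level. The rule for the members uses names alone, but members and lists were chosen with earlier results of these data known. Alternatives were DESeq2 1.42.0, other library sizes, count filters, genome-matched reads alone, each sample left out and a replicate block. No 2 libraries were alike within sampling noise (chi-square per degree of freedom at least 508 over 45 pairs). Sequences of the nuclear tRNAs were not used here.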

Additional observations from a re-analysis of the deposited data

Results flagged for a closer look

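In 7 of 72 groups of 5 values, 1 sample lay farther from its nearest neighbour than Dixon's 95% critical value of 0.71 of the range allows. Chance would flag about 3.6 of 72 independent groups. These groups are not independent, since the 5′ end and internal shares of a tRNA mirror each other, and no excess is read from the 7. For tRNA-iMet-CAT this was HFD-F0 replicate 1, with a 5′ end share of 71.3% (nearest sample 87.3%) and an internal share of 25.9% (nearest 11.2%). In the same library the tRNA was at its lowest level, 4392 RPM. For tRNA-Trp-CCA it was CD-F0 replicate 1, with a 5′ end share of 60.6% (nearest 39.0%) and an internal share of 35.9% (nearest 52.5%), and CD-F0 replicate 5, with a total of 3001 RPM (nearest 3740). The total of tRNA-Met-CAT was 19991 RPM in CD-F0 replicate 3 (nearest 16841), and the 3′ end of tRNA-Phe-GAA was 1.12 RPM in HFD-F0 replicate 5 (nearest 0.708), on 33 reads.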

How the results depend on the processing

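Of 947 values recomputed for 61 results, 837 kept their direction and their side of the threshold, 15 lost and 8 gained a call, 18 counts or values moved and 69 changed sign. None of the members passed both thresholds under any alternative. Features past both thresholds numbered 93 for parts and 75 for totals with no count filter, 19 for parts with at least 10 counts in every sample, and 10 for totals with the replicate block. Members with p at or under 0.05 numbered 0 among parts and 0 among totals with the library size equal to clean reads (for tRNA-Met-CAT log2 fold changes of -0.30 for the 5′ end and -0.29 for the total), and 2 among parts without both replicate 1 samples (the tRNA-Met-CAT 5′ end and the tRNA-Trp-CCA 3′ end). In the main fit 83 of 814 part features (10.2%) passed that p, and no excess among the members is read from these counts. The median log2 fold change over all part features was 0.093 with clean reads as library size, against -0.0055, the largest shift among the alternatives.

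The tRNA-Met-CAT 3′ end log2 fold change turned to 0.031 with clean reads as library size and to 0.30 without both replicate 1 samples, a setting added after seeing the data. In the latter the tRNA-Phe-GAA total was 0.031, or 8.50 RPM, the tRNA-Trp-CCA CCA end share difference was 0.174 points (0.0114 with genome-matched reads alone), the log2 ratio of initiator to elongator was 0.33 for totals and 0.27 for 5′ ends, its difference between diets was -0.21 for 3′ ends, and the tRNA-Met-CAT total differed by -3985 RPM (exact permutation test, p = 0.0286; -3448 and p = 0.0397 per 1000000 annotated reads). With genome-matched reads alone the difference between diets in the CCA end ratio was 0.16.

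Same-numbered samples, replicates 1 to 5, correlated at 0.336, -0.087, 0.246, -0.191 and -0.137 in their deviations. Samples of different numbers correlated at -0.369 to 0.438. So few values cannot settle whether the numbers pair some of the samples, and the main tests took them as unpaired. The replicate block gave 10 calls among totals, log2 fold changes of -0.058 for the tRNA-Trp-CCA CCA end and -0.021 for its total. For shares it gave 0 of 16 at p at or under 0.05, a count fixed in advance, since 5 pairs cannot go below p = 0.0625 in the exact sign-flip test.

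Within CD-F0 and HFD-F0 alone, where the exact sign-flip test over 5 samples cannot go below p = 0.0625, the initiator minus elongator differences were -4.76 and -8.23 points (5′ end share), 0.0379 and 0.0466 (3′ end share), 1.57 and 1.79 (CCA end share) and 3.16 and 6.40 (internal share), and the log2 ratios 2.71 and 3.12 (3′ end), 4.26 and 4.26 (CCA end) and 0.65 and 0.90 (internal). The ratio of totals in HFD-F0 was 0.016 on the log2 scale.

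With each sample left out in turn, calls past both thresholds ranged from 22 to 50 for parts and from 10 to 37 for totals. Members at p at or under 0.05 alone ranged from 1 to 2 among the 16 parts. With no sample left out 83 of 814 part features (10.2%) passed that p, and no excess among the members is read from this range. Differences of tRNA-iMet-CAT ranged from -0.34 to 0.096 for the total, -0.39 to 0.00043 for the 5′ end, -0.095 to 0.27 for the 3′ end, -0.38 to 0.17 for the CCA end and -0.0040 to 0.28 for internal reads (log2), and from -3860 to 1202 RPM. Those of tRNA-Met-CAT ranged from -0.44 to 0.52 for the 3′ end, -0.29 to 0.11 for the CCA end, -0.31 to -0.0084 for internal reads and -3798 to -2290 RPM for the total. tRNA-Phe-GAA ranged from -0.046 to 0.17 for internal reads, 0.025 to 0.42 for the CCA end and 0.22 to 0.52 for the 3′ end, and tRNA-Trp-CCA from -0.11 to 0.084 for the total, -0.0044 to 0.35 for the 5′ end, -0.19 to 0.23 for the CCA end and -1.04 to 1.54 points for its CCA end share. Without HFD-F0 replicate 1 the tRNA-Trp-CCA 3′ end gave 0.59 and passed p at or under 0.05. Share calls among the 16 ranged from 1 to 3. Over all nuclear tRNA shares 14 of 204 (6.86%) passed with no sample left out, and no excess is read from this range. The log2 ratio of initiator to elongator ranged from -0.12 to 0.19 for totals and -0.23 to 0.12 for 5′ ends, and its difference between diets from -0.15 to 0.56 (totals), -0.24 to 0.57 (5′ ends) and -0.17 to 0.075 (CCA ends).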
